A study of Mus musculus with 30 samples.

Results

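The change of control 3T3-L1 cultures between 6 h and 24 h was described here by comparing the 5 control libraries labelled 24 h with the 5 control libraries labelled 6 h, which are 10 of the 30 libraries of the series. 3T3-L1 is a mouse embryo fibroblast line that is committed to the fat cell lineage and fills with lipid droplets under adipogenic hormones. All cultures came from this line at no more than passage 10, so the 5 culture replicates of a group are separate cultures of the same cells and the p-values cover the spread between such cultures only. Per the labels' protocols, cells were left to settle for 2 days and were then given a medium with 10% fetal serum, 500 µM isobutylmethylxanthine (IBMX, which blocks the breakdown of cyclic AMP) and 100 nM insulin for 2 days. The medium was then renewed, with or without the herbicide quizalofop-p-ethyl (QpE, at 50 µM), and changed every 2 days for 6 further days. The control 6 h and control 24 h groups received no QpE, and no other agent or genetic change is given for them. The labels do not state outright that the 6 h and 24 h are counted from this renewal, whether IBMX and insulin were still present after it, or what vehicle the controls received, and dexamethasone, the glucocorticoid of the usual adipogenic mix, is named only as a positive control. The other 20 libraries are the QpE groups at 6 h and 24 h, used below for the same interval, and, beyond the days the protocol lists, the control and QpE groups at 12 days, of which the control group is used for levels.

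Preadipocytes that receive adipogenic hormones are known to round up and lose stress fibres, to pass through a short burst of division called mitotic clonal expansion, and then to build the fat cell programme. C/EBP-beta and C/EBP-delta act early in this chain and induce PPAR-gamma and C/EBP-alpha, which switch on the genes of lipid uptake, synthesis and storage. Actin tension feeds back on transcription through the serum response factor SRF and its MRTF partners, and through YAP, which acts with TEAD factors. Genes of the contractile apparatus and of the TGF-beta pathway are read as signs of this tension and of the fibroblast state.

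Estimated depth was 10100000 to 13300000 read pairs per library in the 10 libraries, an approximate figure since only 49.8% to 57.4% of low values were whole multiples of a step. Between 11455 and 11724 genes reached 1 FPKM (read fragments scaled for transcript length and library size) in each library. Correlations of log2 values across genes were 0.937 to 0.952 between libraries of a group and 0.914 to 0.941 between groups, and the first principal component (26.1% of the variance) put all 6 h libraries on one side and all 24 h libraries on the other. Fibroblast and preadipocyte markers summed to 5570 to 7810 FPKM at 6 h and 7790 to 8790 FPKM at 24 h. Means of Thy1 (294 to 244 FPKM), Ly6a (104 to 58.5 FPKM) and Pdgfrb (23.8 to 22.4 FPKM) were lower at 24 h. Those of the other members were higher, with Col3a1 at 2220 and 3150 FPKM and Cd34 at most 0.186 FPKM in any library. Adipocyte markers summed to 179 to 448 FPKM at 6 h and 282 to 712 FPKM at 24 h. Of 10 macrophage markers, Ptprc, Adgre1, Tyrobp, C1qa and C1qb were at 0 in all 10 libraries and the sum was at most 5.45 FPKM, and 5 of 7 skeletal muscle markers (Myod1, Myog, Myf5, Pax7 and Ckm) were at 0 in all 10. Bulk libraries cannot tell fewer expressing cells from less RNA per cell in any result below.

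At 24 h, 1018 of 11715 tested genes were higher than at 6 h (8.69%) and 1220 were lower (10.4%), by limma on log2(FPKM + 1) with Benjamini-Hochberg adjustment at an adjusted p under 0.05. A gene was tested where it reached 1 FPKM in 5 of the 10 libraries, so a low gene could enter through the group where it is high, and counts over lists below describe their tested members. These 2238 calls (19.1% of the genes) were mostly small, with a median log2 difference of 0.53 among the higher genes and -0.47 among the lower genes. Changes of 1 or more on the log2 scale were found for 103 higher and 155 lower genes, and changes of 2 or more for 4 higher and 19 lower genes. In 1763 of the calls the 5 libraries of one time lay wholly apart from the 5 of the other. Libraries numbered 3 and 4 stood apart in several gene groups, as given below, and within libraries 1, 2 and 5 alone limma called 315 higher and 476 lower, and within libraries 3 and 4 alone 187 and 239. Taking each gene's most abundant transcript in place of the gene sum, 666 genes were higher and 818 lower. With the spread of each gene taken from all 30 libraries, 50 of the 147 called genes named by rule lost their call, among them Mmp3, Hes1, Fasn, Thbs2, Nid1, Fn1, Tsc22d3, Fkbp5, Klf9, Nr1d1, H2-K1, Nop16, Hmox1, Atp6ap2 and Mki67 (adjusted p of 0.0597 to 0.747). The most abundant transcript alone ended 31 calls, among them Lig1, Lamc1, Fn1, Tsc22d3, Fkbp5, Acat2, H2-K1, Nupr1, Aldh18a1 and Nop16 (adjusted p of 0.057 to 0.799).

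**Figure D1:**
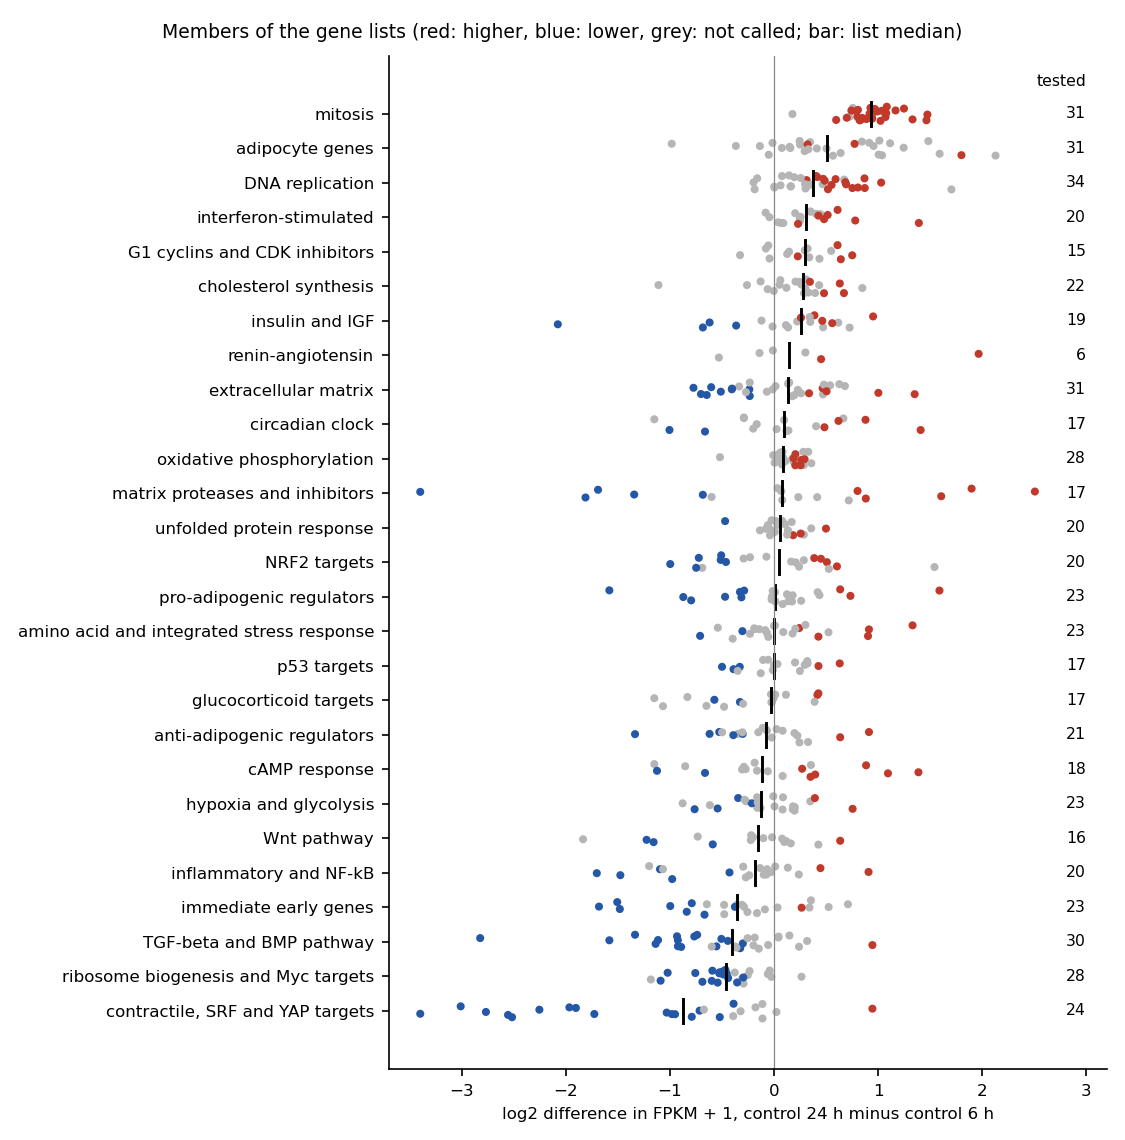
Each point is a tested member of 1 of 27 gene lists (the mitochondrially encoded and ribosomal RNA list is left out), placed by its log2 difference in FPKM + 1 between control 24 h and control 6 h (horizontal axis), with lists ordered by their median (black bar) and the number tested at the right. Red and blue points passed an adjusted p of 0.05, and the mitosis list (median 0.93) and the contractile, SRF and YAP list (median -0.87) lie at the ends of those shown.

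Genes of actin-based contraction and targets of SRF and YAP made up 6 of the 12 largest falls under the naming rule. Of 30 listed genes 24 were tested, 16 fell and 1 rose, against 10.4% and 8.69% of all genes, and the list median was -0.87 against 0.005 for all genes. In all 16 members that fell, every 24 h library lay below every 6 h library, which held for 9.76% of all genes. Acta2 (chr19:34241090-34255336, GRCm38), smooth muscle alpha-actin and the classic marker of a contractile fibroblast, had 454, 418, 645, 749 and 356 FPKM in the 6 h libraries 1 to 5 and 79.9, 72.5, 94.7, 104 and 78.8 FPKM at 24 h. It fell by 2.55 on the log2 scale (SE 0.20, adjusted p = 1.49e-04), 6.11-fold between means, and libraries 3 and 4 were the highest at both times. Actg2, smooth muscle gamma-actin, had 15.3, 11.8, 21.2, 28.1 and 11.1 FPKM at 6 h and 0.503 to 1.81 FPKM at 24 h. It fell by 3.01 (SE 0.28, adjusted p = 2.34e-04).

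The actin-binding protein transgelin, Tagln, went from 22 ± 4.77 to 3.8 ± 0.78 FPKM (SD, n = 5) and fell by 2.25 on the log2 scale (adjusted p = 1.41e-04). Myl9, a regulatory myosin light chain, had 16.1, 20.9, 27, 32.4 and 19.9 FPKM at 6 h and 6.31, 6.56, 8.12, 0 and 0 FPKM at 24 h. It fell by 2.77 by name (adjusted p = 0.0183, and 0.0601 with a pseudocount of 0.1) and by 1.65 with the unnamed transcripts of its locus joined (adjusted p = 7.49e-05), so the size of its fall depends on the 2 libraries listed at 0. Vcl, vinculin of focal adhesions, went from 138 to 32.2 FPKM (log2 difference -1.96), Cald1, caldesmon, from 374 to 194 FPKM (-0.95), and the factor Srf itself from 17.6 to 9.5 FPKM (-0.79), with adjusted p of 7.86e-04, 5.46e-04 and 0.0141. Members that did not pass the test included the tropomyosin Tpm1, at 458 and 371 FPKM (adjusted p = 0.103), the kinase Mylk, at 4.69 and 4.32 FPKM, and the YAP target Axl, at 55.4 and 56.4 FPKM.

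Secreted products of the list fell too. Cyr61, a matricellular YAP target, went from 82.6 ± 46.9 to 12.4 ± 2.47 FPKM (SD, n = 5), with 163 FPKM in the 6 h library 4, and fell by 2.51 (adjusted p = 6.10e-04). Thbs1, thrombospondin 1, an activator of latent TGF-beta, went from 64.4 ± 18.6 to 16 ± 1.23 FPKM and fell by 1.90 (adjusted p = 1.87e-04). Ctgf, the close relative of Cyr61, did not reach 1 FPKM in 5 libraries by name, with 7.98, 0.401, 18.5, 28.1 and 6.32 FPKM at 6 h and at most 0.245 FPKM at 24 h. With unnamed transcripts joined to its locus it was tested and fell by 3.65 (adjusted p = 2.82e-04). The 1 member that rose, Tgfb2, is a TGF-beta ligand and is described with that pathway.

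Promoters of this list are shown because the genes fell together. SRF binds the CArG box, searched here only as CCWWWWWWGG with W for A or T, and TEAD factors bind GGAATG. In RefSeq promoters (250 bases before to 50 after a start, build GRCm38.p6, both strands searched), 12 of the 19 tested members with an entry held GGAATG (63.2%) and 4 held a CArG box (21.1%). These motifs were in 14.7% and 1.63% of all 32851 promoters, and in 13.7% and 1.47% of the tested genes with an entry. The list was drawn up as targets of these factors, so the shares describe the list, and a match is no sign of binding. The stretches below run from 200 bases before to 20 bases after the start and were chosen because they hold a match, with CArG boxes or GGAATG in capitals (Dusp5 is an early response gene described below).
Myl9, chr2:156775264-156775483, plus strand: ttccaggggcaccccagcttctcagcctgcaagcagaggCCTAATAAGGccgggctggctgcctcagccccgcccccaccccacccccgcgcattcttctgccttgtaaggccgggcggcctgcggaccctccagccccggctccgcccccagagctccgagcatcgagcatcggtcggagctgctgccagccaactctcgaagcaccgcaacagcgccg
Dusp5, chr19:53528945-53529164, plus strand: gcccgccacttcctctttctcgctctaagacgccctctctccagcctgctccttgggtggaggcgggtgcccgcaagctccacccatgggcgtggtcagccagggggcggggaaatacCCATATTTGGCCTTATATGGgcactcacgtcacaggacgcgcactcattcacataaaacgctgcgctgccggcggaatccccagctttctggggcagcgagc
Acta2, chr19:34255354-34255573, minus strand: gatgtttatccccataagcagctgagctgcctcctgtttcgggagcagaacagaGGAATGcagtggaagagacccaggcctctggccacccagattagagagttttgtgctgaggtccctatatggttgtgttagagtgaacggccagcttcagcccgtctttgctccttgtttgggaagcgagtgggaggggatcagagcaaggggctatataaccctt
The Myl9 match begins 161 bases before the start, the adjoining Dusp5 matches 82 and 72 bases before it, and the Acta2 match 146 bases before it. The Acta2 stretch also holds ccctatatgg and ccttgtttgg. Each has a C or G in place of a W of the CArG form searched, so neither was counted or marked.

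**Figure D2:**
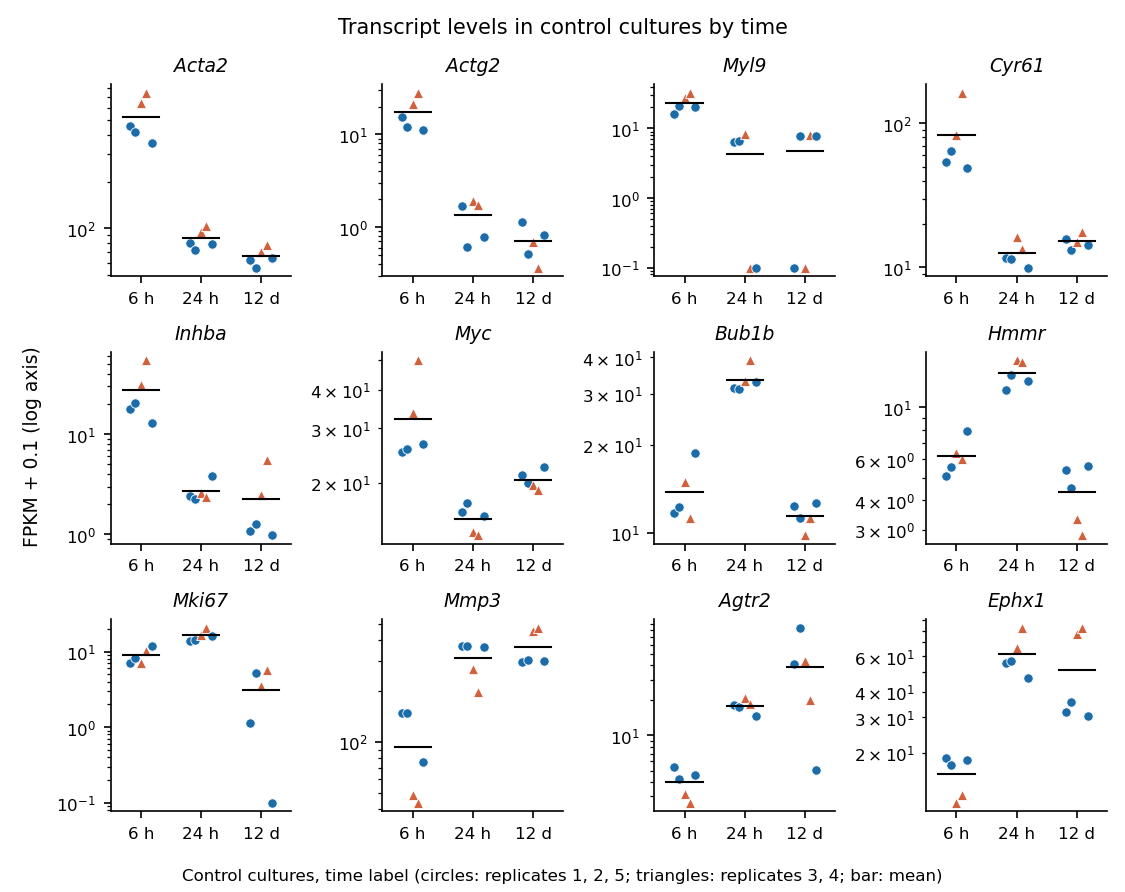
FPKM + 0.1 (log axis) of 12 genes in each control library at 6 h, 24 h and 12 days, with bars at the group mean, circles for libraries 1, 2 and 5 and triangles for libraries 3 and 4. Acta2, Actg2, Cyr61 and Inhba are separated between 6 h and 24 h and stay low at 12 days, Bub1b, Hmmr and Mki67 peak at 24 h, and Mmp3, Agtr2 and Ephx1 are higher at 24 h than at 6 h in every library.

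Of 30 tested genes of TGF-beta and BMP signalling (36 listed) 16 fell (53.3%), 13 did not pass and 1 rose (3.33%), with a median of -0.41. Of all genes 10.4% were lower and 8.69% higher. Among ligands, Inhba, which encodes the activin A subunit, had 17.9, 20.5, 30.8, 54.6 and 12.8 FPKM at 6 h and 2.16 to 3.73 FPKM at 24 h. It fell by 2.82 on the log2 scale (SE 0.33, adjusted p = 5.92e-04). Tgfb1 went from 26.3 to 18.3 FPKM (adjusted p = 0.00342) and Tgfb3 from 46.7 to 23.7 FPKM (adjusted p = 0.00103), while Tgfb2 rose from 7.67 ± 1.61 to 15.7 ± 3.15 FPKM (SD, n = 5; adjusted p = 0.00381). The ligands thus did not move in 1 direction.

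Among receptors, Tgfbr1 had 27.1 and 23.5 FPKM (adjusted p = 0.0823), Tgfbr2 26.8 and 33.7 FPKM (adjusted p = 0.0505), and the co-receptor Tgfbr3 fell from 105 to 85.5 FPKM (adjusted p = 0.00178). Of the inhibitors, the intracellular Smad6 (17.3 to 8.99 FPKM, adjusted p = 0.00162) and Smad7 (3.86 to 1.85 FPKM, adjusted p = 0.0158) and the activin antagonist follistatin, Fst (34.4 to 19.9 FPKM, adjusted p = 0.00224) fell. Among targets, the helix-loop-helix inhibitor Id2 had 26.4 to 30.8 FPKM at 6 h and 5.64 to 15.3 FPKM at 24 h and fell by 1.58 (adjusted p = 7.94e-04). Id3 went from 71.4 ± 4.35 to 28.6 ± 8.47 FPKM (adjusted p = 7.53e-04), Id1 from 166 to 77.7 FPKM (adjusted p = 0.00165), and the matrix protein Tgfbi from 53.1 ± 4.14 to 27.6 ± 2.99 FPKM (adjusted p = 1.99e-04). Smad3, which carries the signal, had 19 and 19.6 FPKM (adjusted p = 0.571).

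Early response genes were lower in part. Of 23 tested members (29 listed) 8 fell (34.8%) and 1 rose (4.35%), against 10.4% and 8.69% of all genes. The AP-1 subunit Fosl1 went from 98.7 to 30 FPKM (log2 difference -1.50, adjusted p = 0.0102), Maff, a small Maf factor, from 7.37 ± 2.14 to 1.93 ± 0.243 FPKM (SD, n = 5; adjusted p = 5.27e-04), and Dusp5, a phosphatase of ERK, from 8.3 ± 4.34 to 1.72 ± 0.333 FPKM (adjusted p = 0.00188). Junb fell by 0.84 (adjusted p = 0.00487) and Klf6 rose by 0.27 (adjusted p = 0.013). Fos was near its floor at both times (1.11 ± 0.19 and 1.69 ± 0.437 FPKM, adjusted p = 0.111, and 0.0242 without the 24 h library 4), and Egr1 had 2.67 and 5.34 FPKM (adjusted p = 0.0962).

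Myc, which drives growth and ribosome production, had 25.1, 25.6, 33.5, 49.8 and 26.6 FPKM at 6 h and 16, 17, 13.7, 13.4 and 15.5 FPKM at 24 h. It fell by 0.99 (SE 0.18, adjusted p = 0.00408), or adjusted p = 0.0908 with its most abundant transcript only, and its 24 h libraries all lay below its 6 h libraries. Of 28 ribosome biogenesis genes and Myc targets, all tested, 17 fell (60.7%, against 10.4% of all genes) and none rose, with a median of -0.46. Rrp12, which exports ribosome precursors, went from 13.5 ± 2.15 to 6.15 ± 0.866 FPKM (SD, n = 5; log2 difference -1.02, adjusted p = 6.80e-04), Srm, spermidine synthase, from 75.2 ± 6.6 to 46.3 ± 4.12 FPKM (-0.69, adjusted p = 5.87e-04), and Bop1 and Nop16 by -0.48 and -0.54. Polr1a and Polr1b, the largest subunits of RNA polymerase I, fell by 0.46 and 0.60. The abundant nucleolar proteins Npm1 (463 and 454 FPKM, adjusted p = 0.876) and Ncl (136 and 127 FPKM, adjusted p = 0.95) and the Myc target Odc1 (60.5 and 72.8 FPKM, adjusted p = 0.236) did not pass the test. The E-box CACGTG, which Myc binds, was in 6 of the 22 members of this list with a promoter entry (27.3%). It was in 7.15% of all promoters and 12.2% of the tested genes. The list was drawn up in part as Myc targets, so the share describes the list, and a match is no sign of binding.

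Genes of mitosis rose nearly throughout. Of 31 tested members (32 listed) 28 rose (90.3%, against 8.69% of all genes) and none fell, with a median of 0.93. In 24 members every 24 h library lay above every 6 h library, which held for 7.44% of all genes. Bub1b (chr2:118598211-118641591), a spindle checkpoint kinase, had 11.5, 12.2, 14.8, 11.2 and 18.7 FPKM at 6 h and 31.3, 31.1, 32.9, 38.9 and 32.8 FPKM at 24 h. It rose by 1.25 on the log2 scale (SE 0.13, adjusted p = 4.26e-04), 2.44-fold between means. Hmmr, a spindle and hyaluronan-binding protein, rose by 1.07 (SE 0.12, adjusted p = 5.09e-04), from 6.1 ± 1.08 to 13.9 ± 1.73 FPKM (SD, n = 5), and Cenpe, a kinetochore motor, by 1.04 (adjusted p = 2.18e-04). The proliferation marker Mki67 had 7.04, 8.09, 6.85, 10.2 and 11.9 FPKM at 6 h and 13.9, 14.1, 16.4, 20.6 and 16.1 FPKM at 24 h (log2 difference 0.82, adjusted p = 0.006, and 0.0968 within libraries 1, 2 and 5 and 0.0887 within 3 and 4). Among the 6 h libraries, library 5 had the highest mean level of the list (3.829 on the log2 scale, against 3.177 to 3.493), still below the lowest 24 h library (4.118).

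Of 34 tested DNA replication genes (36 listed) 16 rose (47.1%, against 8.69% of all genes), 18 did not pass and none fell, with a median of 0.38. Uhrf1, which keeps DNA methylation through replication, went from 12.2 ± 1.37 to 22.2 ± 2.67 FPKM (SD, n = 5; log2 difference 0.81, adjusted p = 7.15e-04). Lig1, the replicative ligase, rose by 0.87 (adjusted p = 8.29e-04) and Pola1, the catalytic subunit of the priming polymerase, by 0.87 (adjusted p = 0.00222). Mcm2, a subunit of the replicative helicase, rose by only 0.31, from 26.9 ± 1.95 to 33.7 ± 3.31 FPKM (adjusted p = 0.0192), and its groups overlapped. Only 2 of the 34 passed within libraries 1, 2 and 5 alone and 2 within libraries 3 and 4 alone, and 9 when each gene's most abundant transcript stood for it.

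Of 15 G1 cyclins and inhibitors of cyclin-dependent kinases 4 rose (26.7%, against 8.69% of all genes) and none fell. All 4 that rose were INK4 family inhibitors. Cdkn2c (p18) had 31.9, 33.2, 25.9, 23 and 35.2 FPKM at 6 h and 55.4, 54.7, 45.3, 40 and 58.6 FPKM at 24 h (log2 difference 0.75, adjusted p = 0.00515). Cdkn2b (p15) went from 56.1 ± 9.66 to 87.3 ± 5.34 FPKM (SD, n = 5; adjusted p = 0.00357), Cdkn2d (p19) from 10.8 ± 1.56 to 17 ± 2.14 FPKM (adjusted p = 0.00409), and Cdkn2a from 273 ± 26.8 to 319 ± 12.7 FPKM (adjusted p = 0.048, a call that 8 of the 10 fits without a library ended, with adjusted p of up to 0.101). Ccnd1, cyclin D1, had 53.9 to 66.7 FPKM at 6 h and 59 to 97.3 FPKM at 24 h (adjusted p = 0.0851, and 0.0348 without the 24 h library 2). The inhibitors Cdkn1a (p21) and Cdkn1b (p27) differed by 0.32 (adjusted p = 0.0769) and 0.13 (adjusted p = 0.644).

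Promoters of the cell cycle genes are shown for the motifs they share. Mitotic genes are known for CCAAT boxes, bound by NF-Y, and for the CHR element TTTGAA, while replication genes are known for E2F sites. Of 26 mitosis genes with a promoter entry 21 held CCAAT (80.8%) and 19 held TTTGAA (73.1%). These motifs were in 37.4% and 17.9% of all promoters and in 43.7% and 13.8% of the tested genes. E2F letters (TTTCGCGC, TTTCCCGC, TTTGGCGC or TTTGCCGC) were in 13 of 28 replication genes with an entry (46.4%). They were in 1 of 26 mitosis genes with an entry (3.85%), 2.26% of all promoters and 5.09% of the tested genes. A CArG box can contain CCAAT, and no other motif searched contains another. In the stretches below, chosen because they hold matches, capitals mark CCAAT boxes (ATTGG when read from the other strand), TTTGAA in Hmmr and Mki67, and the E2F letters read from the other strand in Pola1.
Hmmr, chr11:40733418-40733637, minus strand: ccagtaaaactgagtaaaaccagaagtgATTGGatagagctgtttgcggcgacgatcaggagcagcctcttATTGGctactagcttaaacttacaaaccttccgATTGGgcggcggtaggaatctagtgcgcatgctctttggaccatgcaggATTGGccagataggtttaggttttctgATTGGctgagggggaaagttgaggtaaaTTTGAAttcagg
Mki67, chr7:135716360-135716579, minus strand: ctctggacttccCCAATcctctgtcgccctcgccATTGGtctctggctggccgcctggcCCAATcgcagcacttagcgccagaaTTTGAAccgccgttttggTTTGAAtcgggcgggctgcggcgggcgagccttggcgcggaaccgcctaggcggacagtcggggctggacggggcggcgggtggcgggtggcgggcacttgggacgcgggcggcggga
Pola1, chrX:93632136-93632355, minus strand: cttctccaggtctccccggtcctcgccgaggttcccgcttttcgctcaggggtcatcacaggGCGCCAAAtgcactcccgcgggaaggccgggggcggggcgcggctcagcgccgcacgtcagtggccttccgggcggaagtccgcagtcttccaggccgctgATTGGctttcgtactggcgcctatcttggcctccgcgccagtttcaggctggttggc
In Hmmr, 5 CCAAT boxes begin 172, 129, 96, 47 and 20 bases before the start and the TTTGAA begins at base 9 of the transcript. In Mki67, 2 TTTGAA begin 116 and 98 bases before the start, after 3 CCAAT boxes, and in Pola1 the E2F letters begin 138 bases before the start.

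**Figure D3:**
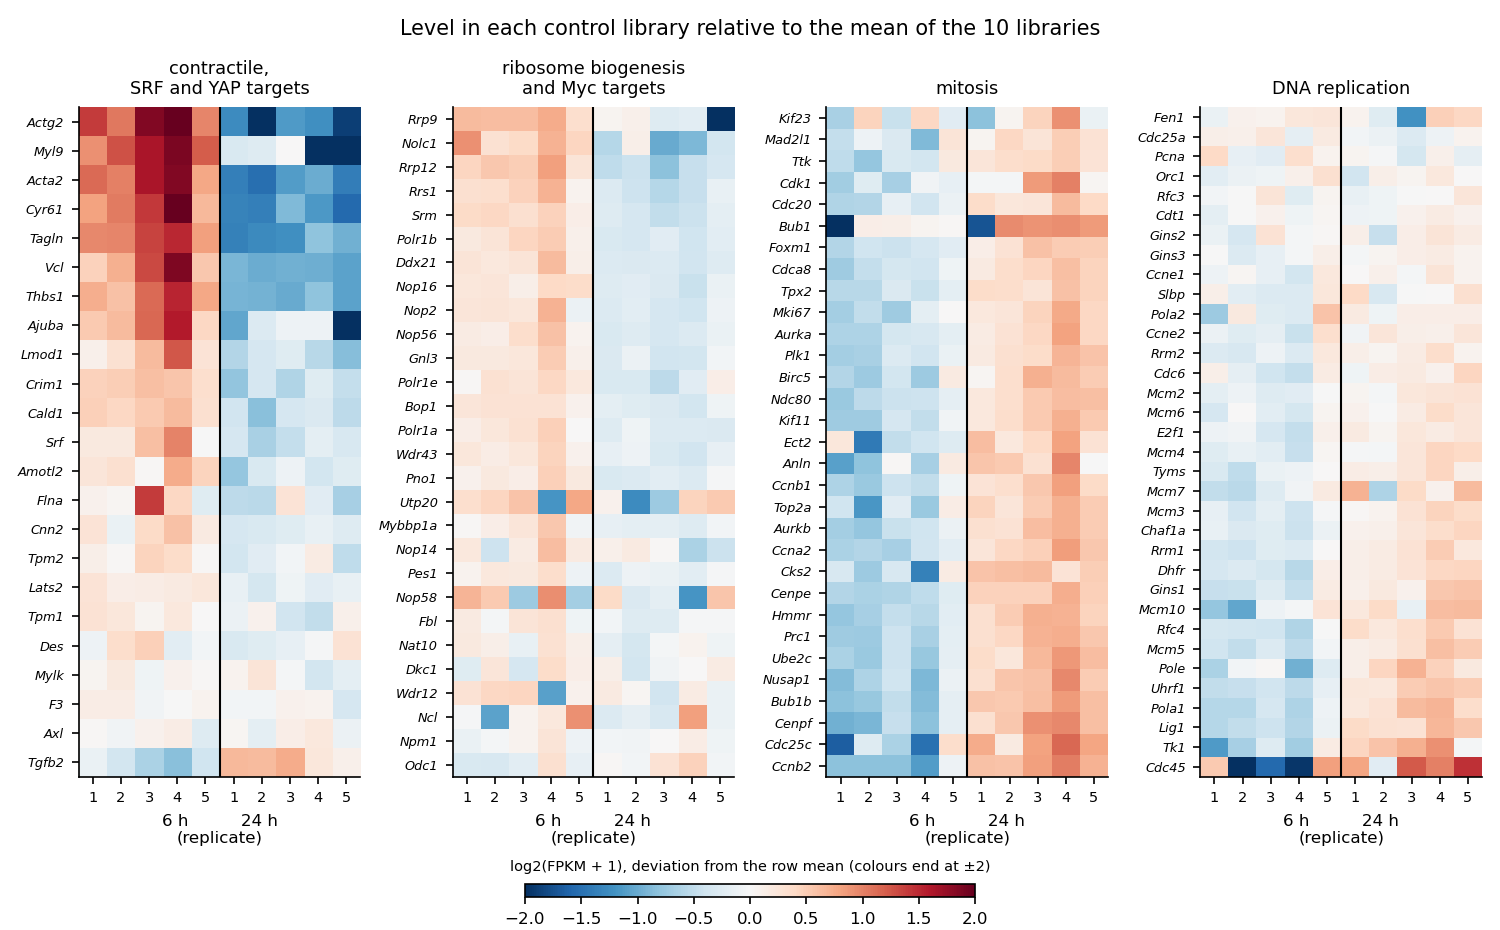
Rows are tested members of 4 lists (1 contractile member is not shown) and columns are the 10 control libraries (replicates 1 to 5 at 6 h, then at 24 h). Colour is the deviation of log2(FPKM + 1) from the row mean, with colours ending at ±2. Most rows of the contractile and ribosome lists are lower at 24 h (towards blue), and most of the mitosis and replication lists higher (towards red). Of the tested members, 7 of 24 contractile and 18 of 34 replication genes did not pass the test.

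Regulators of adipogenesis moved in both directions. Of 23 tested genes with a pro-adipogenic role (25 listed) 3 rose (13%) and 7 fell (30.4%), against 8.69% and 10.4% of all genes. Pparg (chr6:115360951-115490399), the central regulator of fat cell formation, had 15.7, 20.4, 13.7, 17.3 and 21.1 FPKM at 6 h and 29.8, 32.8, 30.4, 19.9 and 27.3 FPKM at 24 h. It rose by 0.64 on the log2 scale (SE 0.15, adjusted p = 0.0162), with an overlap from the 24 h library 4, and the call was lost with the spread taken from all 30 libraries (adjusted p = 0.219) and with its most abundant transcript only (0.098). Zfp467, a zinc finger factor that favours fat over bone, rose from 2.19 ± 1.13 to 8.11 ± 0.909 FPKM (SD, n = 5; adjusted p = 0.00213). The glucocorticoid receptor Nr3c1 rose by 0.74 (adjusted p = 0.0223, and 0.0538 and 0.0512 without the 6 h or the 24 h library 3).

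Cebpb, the early C/EBP, had 151, 166, 231, 199 and 131 FPKM at 6 h and 114, 89.2, 96.9, 92.3 and 103 FPKM at 24 h. It fell by 0.79 (SE 0.14, adjusted p = 0.00459), with libraries 3 and 4 highest at 6 h. Klf5, an activator of Pparg, fell by 0.87 (adjusted p = 0.00883), and Id2, Xbp1, Klf9, Ppard and Stat5a also fell. Cebpa had 51.7, 53.4, 39.6, 40.1 and 50.2 FPKM at 6 h and 74.5, 69.1, 51.8, 35.4 and 58.9 FPKM at 24 h, a difference of 0.26 that did not pass (adjusted p = 0.371, 95% interval -0.16 to 0.68). Cebpd had 9.58 ± 2.09 and 9.54 ± 1.13 FPKM (adjusted p = 0.96).

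Of 21 tested genes that hold back fat formation (25 listed) 5 fell (23.8%, against 10.4% of all genes) and 2 rose. The share that rose, 9.52%, was near the 8.69% of all genes. Id3, the Pparg repressor Foxo1 (4.87 ± 0.89 to 2.8 ± 0.068 FPKM, SD, n = 5; adjusted p = 0.00346), E2f4, Twist2 and Hes1 fell. Ddit3, the C/EBP family member CHOP, had 13.5 to 19.6 FPKM at 6 h and 22.3 to 42.5 FPKM at 24 h and rose by 0.91 (adjusted p = 0.00707), and the ligand Wnt6 rose by 0.64 at the edge of the threshold (adjusted p = 0.0493, a call that 8 of the 10 fits without a library ended, with adjusted p of up to 0.107). Dlk1, the preadipocyte factor Pref-1, was high at both times, with 644 to 989 FPKM at 6 h and 937 to 1180 FPKM at 24 h (adjusted p = 0.242).

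Few fat cell genes passed the test. Of 31 tested members (40 listed) 3 rose and none fell, a share near the 8.69% of all genes. The median was 0.51 against 0.005 for all genes, and 26 of the 31 differences were above 0. With unnamed transcripts joined to their locus 9 of the 31 rose, beside 1521 of all 13075 genes tested in that fit. Fasn, fatty acid synthase, rose by 0.32 (SE 0.05, adjusted p = 0.00288, and 0.747 with the spread from all 30 libraries), from 38.2 to 43.6 FPKM at 6 h to 47.1 to 54.1 FPKM at 24 h. Cd36, a fatty acid transporter, had 7.53, 7.52, 3, 2.69 and 11.6 FPKM at 6 h and 36, 38.5, 13.5, 6.98 and 40.3 FPKM at 24 h (log2 difference 1.80, adjusted p = 0.038), and 7 of the 10 fits that left out a library ended the call, with adjusted p of up to 0.0878. Acacb, an acetyl-CoA carboxylase, had 1.34 ± 0.364 and 3.14 ± 1.27 FPKM (adjusted p = 0.0346), and here too 7 such fits ended the call, with adjusted p of up to 0.0815.

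Other fat cell genes did not pass. Adipoq, adiponectin, had 24.7, 21.9, 7.91, 5.28 and 31.1 FPKM at 6 h and 63.7, 77.2, 34.4, 13.4 and 101 FPKM at 24 h (log2 difference 1.59, SE 0.61, adjusted p = 0.097). Fabp4, the fat cell fatty acid carrier, had 56.3, 42.8, 43.2, 62.2 and 99.2 FPKM at 6 h and 148, 176, 99.3, 52.2 and 167 FPKM at 24 h (1.01, SE 0.35, adjusted p = 0.0696). Cfd, adipsin, went from 3.44 ± 2.1 to 13.6 ± 8.46 FPKM (SD, n = 5; adjusted p = 0.0951), and Plin1, the lipid droplet coat protein perilipin, from 17.8 ± 3.63 to 25.7 ± 10 FPKM (adjusted p = 0.387). Library 4 was low for all of them at 24 h, and for 19 of the 31 members it was the lowest 24 h library.

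Without the 24 h library 4, 10 of the 31 rose, and Adipoq, Fabp4, Cfd and Plin1 passed with adjusted p of 0.0322, 0.012, 0.00713 and 0.0229. Without the 6 h library 5, 6 rose, and without the 6 h library 1, 2 or 3, 1 rose. Within libraries 1, 2 and 5 alone 9 rose, beside 315 of all 11715 genes. Within libraries 3 and 4 alone none did, beside 187 of the 11715 genes. These fits hold fewer libraries and unlike numbers of them, so their counts cannot compare the 2 sets. The mean log2 level of the list at 24 h was 4.492, 4.859 and 4.526 in libraries 1, 2 and 5 and 4.177 and 3.593 in libraries 3 and 4. At 12 days it was 6.816 to 6.978 in the first and 5.487 and 5.285 in the second. The labels name no batch and do not say what a replicate number marks, so whether libraries 3 and 4 share a source was not tested. Lpl, lipoprotein lipase, had 15.4 FPKM in the 6 h library 5 against 193 to 340 FPKM in the other 6 h libraries, and with unnamed transcripts joined its difference went from 1.01 to 0.03 (adjusted p = 0.948).

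**Figure D4:**
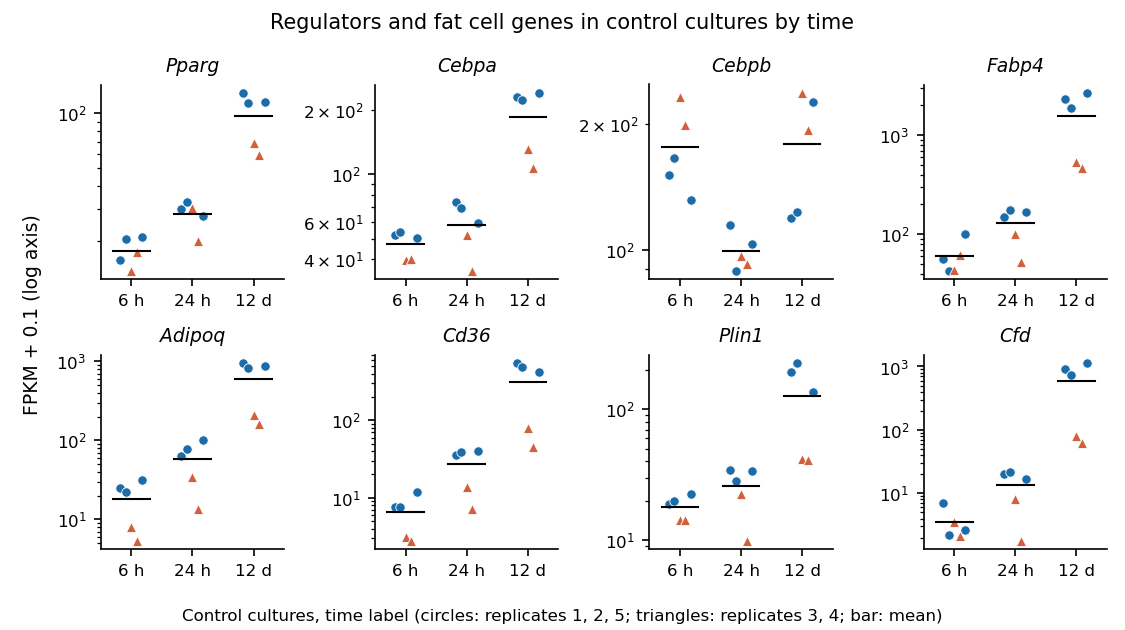
FPKM + 0.1 (log axis) of Pparg, Cebpa, Cebpb and 5 fat cell genes in control libraries at 6 h, 24 h and 12 days, with bars at the mean, circles for libraries 1, 2 and 5 and triangles for libraries 3 and 4. Adipoq and Cd36 are lowest in libraries 3 and 4 at all 3 times, and at 24 h library 4 has 13.4 FPKM of Adipoq against 63.7 to 101 in libraries 1, 2 and 5.

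Matrix and protease genes changed in both directions. Of 17 tested proteases and inhibitors 5 rose (29.4%) and 5 fell (29.4%), against 8.69% and 10.4% of all genes. Of 31 matrix genes 5 rose (16.1%) and 9 fell (29%). Only 3 matrix genes rose without the 6 h library 3, 4 or 5 or the 24 h library 1 or 2. The collagenase Mmp13 had 7.18, 7.42, 1.22, 1.32 and 2 FPKM at 6 h and 36.3, 36.8, 15.8, 9.96 and 23.4 FPKM at 24 h. It rose by 2.51 on the log2 scale (SE 0.49, adjusted p = 0.007), the largest rise among named genes, and libraries 3 and 4 were the lowest at both times. Mmp3, stromelysin, had 149, 149, 48.1, 43.5 and 75.9 FPKM at 6 h and 371, 372, 269, 199 and 363 FPKM at 24 h and rose by 1.90 (adjusted p = 0.00687), and Adamts5, an aggrecanase, rose by 1.61 (adjusted p = 0.012). Of their inhibitors, Timp3 fell from 66.2 ± 26.6 to 17.2 ± 3.58 FPKM (SD, n = 5; adjusted p = 0.00157) and Timp1 from 225 ± 44 to 86.9 ± 5.97 FPKM (adjusted p = 2.34e-04). Plaur, the urokinase receptor, fell by 1.69 (adjusted p = 0.00224).

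Basement membrane genes Nid1 (358 ± 49 to 227 ± 20 FPKM, SD, n = 5; adjusted p = 0.00213), Col4a1 (592 ± 54.2 to 390 ± 43.8 FPKM, adjusted p = 0.00268) and Lamc1 fell, and fibronectin, Fn1, fell by 0.77 (adjusted p = 0.0167). Elastin, Eln, rose from 0.787 ± 0.302 to 3.61 ± 1.1 FPKM (adjusted p = 0.00114), and thrombospondin 2, Thbs2, from 102 ± 12 to 145 ± 9.68 FPKM (adjusted p = 0.00285), in contrast to Thbs1. Among the 12 largest rises were the small leucine-rich proteoglycans Ogn (log2 difference 1.73, adjusted p = 0.00386) and Kera (1.52, adjusted p = 0.004), which bind collagen.

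Other genes among the 12 largest rises encode a receptor, a pump subunit and enzymes. Agtr2 (chrX:21484544-21489164), the type 2 angiotensin receptor, had 5.28, 4.14, 3.02, 2.56 and 4.5 FPKM at 6 h and 18.1, 17.4, 20.8, 18.6 and 14.5 FPKM at 24 h. The rise was 1.97 (SE 0.16, adjusted p = 1.60e-04). Of the 6 tested renin-angiotensin genes Atp6ap2, the prorenin receptor, rose too (0.45, adjusted p = 4.22e-04). Ephx1, microsomal epoxide hydrolase, had 18.8, 17.2, 11.3, 12.2 and 18.3 FPKM at 6 h and 55.4, 56.6, 65.6, 82.1 and 46.6 FPKM at 24 h (1.91, adjusted p = 2.47e-04). Atp1b1, a sodium pump subunit, went from 35.7 ± 8.43 to 118 ± 6.05 FPKM (SD, n = 5; adjusted p = 1.49e-04), and Steap4, a metalloreductase of fat tissue, from 2.05 ± 0.997 to 8.21 ± 2.39 FPKM (adjusted p = 0.00325). Igsf10 rose by 1.63 (adjusted p = 2.31e-04). Prokr1, a prokineticin receptor, was listed at 0 in the 6 h libraries 3 and 4, and its rise of 2.28 (adjusted p = 0.0147) was 0.82 with its most abundant transcript (adjusted p = 0.578).

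Among the largest falls outside the lists above, the keratin Krt15 went from 29.1 ± 10 to 3.23 ± 0.335 FPKM (SD, n = 5; log2 difference -2.77, adjusted p = 1.49e-04), the factor Runx1 from 12.7 ± 6.19 to 1.69 ± 0.219 FPKM (-2.23, adjusted p = 6.80e-04) and Tnfrsf12a, the TWEAK receptor, from 153 ± 29.2 to 32.2 ± 6.57 FPKM (-2.22, adjusted p = 1.49e-04). Slc37a2, a sugar phosphate carrier, fell by 2.50 (adjusted p = 0.00128). Serpina3n fell by 2.40 (adjusted p = 7.20e-04), but its locus in the table holds 7 gene names, and reads may be shared among these near-identical genes. The 6 h libraries 3 and 4 were highest for Krt15 (34.9 and 43.1 FPKM) and Runx1 (19.2 and 19.6 FPKM).

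The counts of the next lists stand against 8.69% of all genes higher and 10.4% lower. Of 19 insulin and IGF genes 5 rose and 4 fell, with Igf2r, the receptor that clears IGF2, from 45.9 ± 5.98 to 89.3 ± 5.58 FPKM (SD, n = 5; adjusted p = 2.47e-04) and Cav1, caveolin 1, from 455 ± 194 to 99.4 ± 11.2 FPKM (adjusted p = 0.00105). Of 16 Wnt pathway genes 3 fell and 1 rose, with Wisp2 from 124 ± 4.44 to 53.2 ± 9.62 FPKM (adjusted p = 1.99e-04). Of 20 inflammatory genes 5 fell and 2 rose, with the IL-33 receptor Il1rl1 from 159 ± 57.2 to 46.8 ± 11.3 FPKM (adjusted p = 0.00132) and the macrophage growth factor Csf1 from 99.5 ± 11.4 to 50.1 ± 5.73 FPKM (adjusted p = 2.84e-04). Of 20 interferon-stimulated genes 7 rose and none fell, with H2-K1 from 52.8 ± 3.6 to 71.3 ± 3.46 FPKM (adjusted p = 0.00116, and 0.362 with the spread from all 30 libraries). In that fit 1 of the 20 passed, as within libraries 1, 2 and 5, none did within libraries 3 and 4, and 4 did without the 24 h library 2 or 3. Of 18 cyclic AMP response genes 6 rose and 2 fell, Gem and Ppargc1a among those higher (1.39, adjusted p = 0.00363, and 1.10, adjusted p = 0.0044), and 3 rose without the 6 h library 1, 2 or 3 or the 24 h library 1 or 3. Crem had 3.51 and 2.96 FPKM (adjusted p = 0.479). Of 17 glucocorticoid targets 2 rose and 2 fell, shares near those of all genes, and none passed with the spread from all 30 libraries. Tsc22d3 differed by 0.42 and Fkbp5 by -0.57 (adjusted p = 0.284 and 0.372 in that fit).

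Of 17 clock genes 4 rose and 2 fell. The output factor Dbp had 16, 12, 8.48, 8.61 and 20.2 FPKM at 6 h and 34.6, 31.7, 45, 44.1 and 22.4 FPKM at 24 h (log2 difference 1.41, adjusted p = 0.00509), the repressor Nr1d1 rose by 0.62 (adjusted p = 0.00204), and Cry1, a repressor of the core loop, had 7.17 to 9.85 FPKM at 6 h and 3.25 to 4.88 FPKM at 24 h and fell (adjusted p = 7.86e-04). Arntl, the core activator, had 2.75 ± 1.15 and 2.1 ± 1.07 FPKM (SD, n = 5; adjusted p = 0.465). Per1 had 4.87 ± 3.18 and 1.81 ± 1.99 FPKM (adjusted p = 0.127), and with the unnamed transcripts of its locus, which hold 52.4% of the locus FPKM, its difference was -0.62 (adjusted p = 0.00759). Library 2 at 24 h decided the value by name (adjusted p = 0.0427 without it). Whether the hours are counted from the medium renewal is not stated outright. If they are, time in culture and time since the renewal differ together between the groups and cannot be told apart.

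Medians of the metabolic and stress lists were mostly near 0, though several of these lists had calls in both directions. Of 28 nuclear oxidative phosphorylation genes 6 rose and none fell, with a median of 0.09 and Cox7a2 the clearest (89 ± 4.73 to 109 ± 5.18 FPKM, SD, n = 5; adjusted p = 0.00386). Leaving out a library gave 2 to 5 rises, the fewest without the 24 h library 1 and 3 without the 6 h library 1, 2, 3 or 4 or the 24 h library 2, and TPM scaling gave 2, the spread from all 30 libraries 1 and libraries 1, 2 and 5 alone none. Of 22 cholesterol synthesis genes 4 rose and none fell, with a median of 0.28, and Acat2, a thiolase at the start of the pathway, went from 60.1 ± 2.35 to 97.2 ± 14 FPKM (adjusted p = 0.00119, and 0.799 with its most abundant transcript only). Without the 24 h library 5 the list had 9 rises. Of 23 genes of the integrated stress response 5 rose, Trib3 (1.33, adjusted p = 0.0128) and Nupr1 (0.90, adjusted p = 3.09e-04) among them, and 2 fell, Asns (-0.71, adjusted p = 0.00465) and Aldh18a1, while the factor Atf4 had 129 FPKM at both times. Of 20 NRF2 targets 4 rose and 6 fell, with the sulfiredoxin Srxn1 from 58.2 ± 7.38 to 28.7 ± 3.41 FPKM (adjusted p = 4.26e-04) and the heme oxygenase Hmox1 from 132 ± 27.6 to 77.7 ± 8.55 FPKM (adjusted p = 0.00392). Without the 6 h library 3 or the 24 h library 3 only 1 NRF2 target rose, and 2 did without the 24 h library 2. Hypoxia and glycolysis genes had 2 higher and 4 lower of 23, unfolded protein response genes 3 and 1 of 20, and p53 targets 2 and 3 of 17, against 8.69% higher and 10.4% lower of all genes. The 7 tested mitochondrially encoded and ribosomal RNA genes had no call, and several were listed at 0 in some libraries and at high values in others, so no fold is given for them.

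The same interval was measured in QpE cultures, which share no library with the controls. There 1258 of 11671 genes were higher at 24 h (10.8%) and 1112 were lower (9.53%), 20.3% in all. Of 11481 genes tested in both, 1476 were called in both in the same direction, 66.6% of the control calls and 63% of the QpE calls, and 1 was called in opposite directions. Of the control calls 97.3% had the same sign in QpE cultures, against 76.4% of all genes, and the differences correlated across genes with r = 0.63 (a description, since genes are not independent). In QpE cultures the contractile list had 20 of 25 lower and 1 higher, the mitosis list 29 of 31 higher, the replication list 21 of 34 higher and the ribosome list 17 of 28 lower. Acta2 fell there by 3.10 (SE 0.15) and Cyr61 by 2.98 (SE 0.20), while Bub1b rose by 1.53 (SE 0.13) and Hmmr by 1.39 (SE 0.16). Agtr2 and Mmp3 did not pass there, with log2 differences of 1.29 (adjusted p = 0.107) and 1.07 (adjusted p = 0.0794).

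In the QpE course 16 of 30 fat cell genes were higher and 1 was lower, with a median of 0.56, beside 3 of 31 and 0.51 in controls. Fabp4 rose by 1.45 (SE 0.25, adjusted p = 0.00321), Cfd by 2.46 (SE 0.41, adjusted p = 0.00252), Cd36 by 3.04 (SE 0.58, adjusted p = 0.00547) and Cebpa by 0.73 (SE 0.20, adjusted p = 0.0287). The difference between the courses, tested as an interaction in limma over the 20 libraries, was called for 0 of 12332 genes. At an unadjusted p under 0.05 there were 570 genes, where chance gives 617, and the lowest adjusted p was 0.826. For Fabp4 the courses differed by 0.44 (SE 0.45), for Cfd by 0.98 (SE 0.73) and for Acta2 by -0.55 (SE 0.26), each with an adjusted p of 0.969. How large a difference these 20 libraries could have shown was not tested. Leaving out the control 6 h library 4, the control 6 h library 5 or the QpE 24 h library 4 gave 1 call each.

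**Figure D5:**
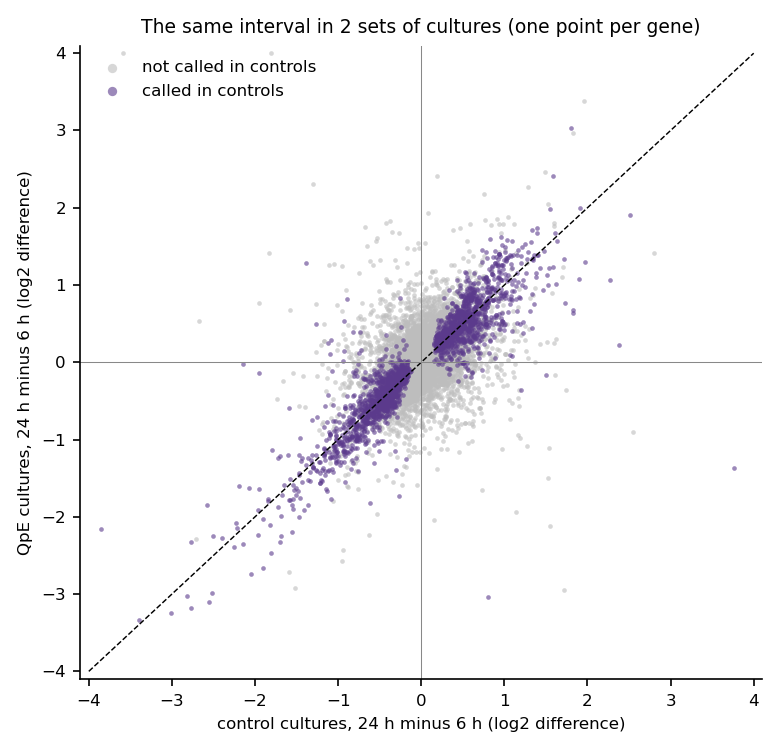
Each point is a gene, placed by its log2 difference between 24 h and 6 h in control cultures (horizontal axis) and in QpE cultures (vertical axis), with the dashed line marking equal differences and 2 genes drawn at the edge of the plot at 4. Purple points, called in controls, lie mostly in the quadrants of equal sign (97.3%).

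The control libraries at 12 days show where these levels went, given as a description. Acta2 had 66.2 ± 8.49 FPKM (SD, n = 5), Actg2 0.608 ± 0.301 FPKM and Tagln 2.05 ± 0.355 FPKM, all below their 24 h means. Bub1b was at 11.3 ± 1.13 FPKM, Hmmr at 4.24 ± 1.22 FPKM and Uhrf1 at 8.45 ± 1.06 FPKM, below their 6 h means. Among the 3 times their means were highest at 24 h. Libraries of 12 days and 6 h overlapped for Bub1b (9.7 to 12.5 and 11.2 to 18.7 FPKM) and Hmmr (2.75 to 5.49 and 4.99 to 7.82 FPKM). Pparg was at 97.2 ± 30.9 FPKM, Cebpa at 185 ± 61.5 FPKM, Adipoq at 602 ± 385 FPKM and Fabp4 at 1567 ± 1010 FPKM. For each of these, every 12 day library lay above every 24 h library. Adipoq had 821 to 945 FPKM in the 12 day libraries 1, 2 and 5 and 159 to 209 FPKM in libraries 3 and 4. Fabp4 had 1860 to 2640 FPKM and 468 to 540 FPKM in the same sets. Cebpb was back at 179 ± 55.3 FPKM. Mmp3 (367 ± 90.5 FPKM), Ephx1 (51.4 ± 25.9 FPKM) and Agtr2 (38.6 ± 29.6 FPKM) remained above their 6 h means, with Agtr2 spread from 4.94 to 83.4 FPKM.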

How the data were processed

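Poly(A) RNA of each culture was sequenced with a directional kit as 75 bp read pairs, per the labels' protocols. The authors deposited 1 table of FPKM per transcript, and HISAT, HISAT2, StringTie and build GRCm38 are named, without versions, per the submitters' processing notes. In 10 columns the deposited FPKM hold 11 values just below 0, so these columns were recorded as a score and the values were set to 0. Of 150146 transcripts, 16259 carry no gene name, with 11.9% of the FPKM, and entered only an alternative that joined them to their locus. FPKM were summed by gene name.

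Genes at 1 FPKM in at least 5 of the 10 libraries were fitted as log2(FPKM + 1) with limma 3.58.1 in R 4.3.3, with a mean trend and Benjamini-Hochberg adjustment over 11715 genes. Differences are on the log2(FPKM + 1) scale, which understates low genes. Samples were grouped by their labels. The members, gene lists and tests were chosen with earlier results of these data known.

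Genes named were the 12 largest rises and falls among calls without overlap and with a mean of at least 5 FPKM in the higher group, up to 4 calls per list and direction, and a set of regulators and markers. Other list members, such as Vcl, Cald1, Srf, Fosl1, Id1, Smad6, Smad7, Klf6 and those given as not passing, were chosen after their values were seen. Promoter letters are from RefSeq (GRCm38.p6), with an entry for 8310 of the 11715 genes. Shares of lists and of tested genes count genes with a match in any entry, while shares of all promoters count entries.

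The labels do not say what a replicate number marks, and the libraries were not paired. Over all genes, deviations of same-numbered libraries correlated at -0.0771 to 0.0593, below the bound of 0.1. On the second principal component (11.7% of the variance), libraries 3 and 4 were negative at 6 h (-9.54 and -22.1) and at 24 h (-9.44 and -24.5). Libraries 1, 2 and 5 were positive there at both times (1.26 to 28). The correlation over all genes therefore cannot show whether some libraries share a source, which was not tested. On simulated data with 200 changed genes among 11715, 51.6%, 74.8% and 92.1% of 1.5-fold, 2-fold and 4-fold changes were recovered and 5.33% of calls were false. Each gene's mean and spread were taken from these libraries, and its noise was drawn independently of other genes. Many more genes were called in the real comparison (19.1%), so these shares need not hold for its calls. The step sizes of low values gave an estimate of depth. A few results are not reported here.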

Additional observations from a re-analysis of the deposited data

Results flagged for a closer look

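In 326 groups of 5 libraries looked at, 19 held a library whose gap to the nearest other exceeded Dixon's 95% critical value of 0.71 of the range, where chance at 1 in 20 gives about 16. At 24 h, library 4 stood apart for Bub1b at 38.9 FPKM (others 31.1 to 32.9), Cenpe at 17.1 (14 to 14.3), Kera at 18.8 (23.5 to 24.7), Hk2 at 9.1 (12 to 13.2) and Trp53inp1 at 14.7 FPKM (12.5 to 12.7). Library 5 stood apart at 24 h for Inhba at 3.73 FPKM (2.16 to 2.49), Tnfrsf12a at 21 (33.2 to 38.4) and Igf2r at 79.5 FPKM (89.9 to 92.9). Library 3 did so for Nr3c1 at 26.7 FPKM (17.8 to 19.4) and Maff at 2.36 FPKM (1.76 to 1.87), and library 2 for Hes1 at 21.3 FPKM (19.8 to 20.2).

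At 6 h, library 5 stood apart for Lpl at 15.4 FPKM (others 193 to 340), Dlk1 at 644 (903 to 989), Cdkn1a at 20.9 (29 to 32), Cry1 at 7.17 (9.07 to 9.85) and Bop1 at 27 FPKM (30.4 to 31.2). Other 6 h libraries did so for Foxo1 at 6.44 FPKM in library 3 (4.37 to 4.75), Fasn at 43.6 in library 4 (38.2 to 39.6) and Hlf at 1.05 FPKM in library 1 (0.205 to 0.364).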

How the results depend on the processing

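Of 147 named genes called, 43 stayed past the threshold in every setting that tested them, of 26 settings tried. The genes called, 1018 higher and 1220 lower, numbered 666 and 818 with the most abundant transcript only, 315 and 476 within libraries 1, 2 and 5, and 187 and 239 within libraries 3 and 4, which have fewer samples. The 120 distinct list members that were higher became 75 with the spread from all 30 libraries, 57 within libraries 1, 2 and 5 and 33 within libraries 3 and 4, and the 109 that were lower became 32 within libraries 3 and 4. Leaving out a library in turn gave 744 to 1107 genes higher and 914 to 1181 lower, 94 to 124 list members higher and 92 to 106 lower, 906 to 1289 higher and 897 to 1066 lower genes in QpE cultures, and 0 to 1 interaction calls. With TPM scaling 37.6% of calls were higher and with median-ratio scaling 48.8%, against 45.5%. Ddx58 reversed with its most abundant transcript only, at -0.21 (adjusted p = 0.787). Causes of these shifts were not tested.

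With the replicate number as a block, 821 genes were higher and 912 lower in controls and 1087 and 921 in QpE cultures. The labels do not say that a number marks a shared source, and a library matched its own number best in 2 of 5 cases. Adipoq had an adjusted p of 0.00384 under the block and Cdkn1a 0.0332. Depth could only be estimated, so no limit from it is given per gene.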
